A study of Mus musculus with 11 samples.

Results

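The 44 genes described here drive or restrain the cell cycle, and the measurement is the openness of the chromatin at and around them in the growing and the established parts of the mouse mammary tree. They were taken by name, in 8 roles: the D-type cyclins and their kinases (Ccnd1, Ccnd3, Cdk4, Cdk6), cyclin E and Cdk2 (Ccne1, Ccne2, Cdk2), the A- and B-type cyclins and Cdk1 (Ccna2, Ccnb1, Ccnb2, Cdk1), the CDK inhibitors (Cdkn1a, Cdkn1b, Cdkn1c, Cdkn2a, Cdkn2b, Cdkn2c), the E2F and RB family (E2f1, E2f2, E2f3, E2f7, E2f8, Rb1, Rbl1), the licensing factors and the clamp of replication (Mcm2, Mcm3, Mcm4, Mcm5, Mcm6, Mcm7, Pcna, Cdc6, Cdt1), mitotic proteins (Mki67, Top2a, Aurka, Aurkb, Plk1, Bub1, Cdc20) and the factors Foxm1, Mybl2, Myc and Mycn. A peak belonged to a gene when it overlapped the gene body or lay within 10 kb of a transcription start site in mm10, and a promoter peak lay within 500 bp of a start. By this rule 209 of the 153396 accessible regions were members, namely 44 lead promoter peaks (the promoter peak with the most counts, 1 for each gene), 12 further promoter peaks in 9 of the genes, and 153 other peaks.

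Terminal end buds (TEBs) are the club-shaped, strongly dividing tips from which the mammary ducts grow out at puberty, and they leave behind ducts that divide far less. In a dividing cell, D-type cyclins with Cdk4 or Cdk6 phosphorylate RB proteins, which frees E2F factors to switch on cyclin E, the replication genes and their own genes. Cyclin A and cyclin B with Cdk1 then carry the cell through S phase and mitosis, when FOXM1 and B-MYB act on the late genes, and the INK4 and Cip/Kip inhibitors hold the kinases back. An accessible promoter is a precondition for transcription, and ATAC-seq, in which the Tn5 transposase inserts adapters into open DNA, measures that openness and not the transcripts.

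TEBs and ducts were micro-dissected from C57BL/6 mice that carry an E-cadherin-GFP (Ecad-GFP) fusion, at 5 weeks of age. From each structure, cells negative for Ter119, CD31 and CD45 and positive for CD29 and CD24 were sorted, basal cells as Ecad-GFP lo and luminal cells as Ecad-GFP hi, which gave 11 libraries in 4 groups. Luminal TEB, luminal duct and basal TEB have 3 libraries each, and basal duct has 2 (replicates 1 and 3). No group carried a further treatment or allele, the tissue came from pooled mice, and p-values here measure the spread between these pools. The level of a single fluorescent protein within that gate separates the lineages.

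Counts in peaks ran from 1821942 (basal TEB) to 9986384 (basal duct) per library, and the share of counts in the 16630 promoter peaks of all genes was 40.1% and 42.7% in basal duct against 31.1 to 37.4% in the other 9 libraries. The summed promoter level of 6 basal markers (Krt5, Krt14, Krt17, Acta2, Trp63, Myh11) was 212 to 233 CPM in basal duct, 104 to 153 in basal TEB and 21.8 to 32.5 in the luminal libraries, and that of 6 luminal markers (Krt8, Krt18, Krt19, Foxa1, Elf5, Cldn3) was 214 to 289 CPM in luminal libraries, 115 to 130 in basal duct and 59.3 to 70.9 in basal TEB. Fibroblast markers with a promoter peak (3 of 5, with none at Col1a1 and Lum) summed to 82.1 to 97.0 CPM in basal duct, 40.4 to 50.1 in basal TEB and 12.2 to 19.2 in luminal libraries. The gate would remove endothelial, immune and erythroid cells. Endothelial markers (2 of 5, with no peak at Pecam1, Cdh5 and Tie1) summed to 25.2 to 28.7 CPM in basal duct, 17.6 to 22.5 in basal TEB and 4.45 to 7.57 in luminal libraries, and immune markers (2 of 5, with no peak at Ptprc, Cd3e and Spi1) to 5.62 to 14.5 CPM over all groups. The depth, the promoter share and these markers move with the groups compared, and their part in the results was not tested.

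The promoter sequences of these genes, where a window was available, were searched for short letter runs of cell cycle factors and of general promoter elements. RefSeq promoter windows (GRCm38.p6, mm10, 250 bases before and 50 after a start) were matched by symbol for 35 of the 44 genes, and 11068 genes of all with a lead promoter peak had such a window. The remaining genes are Ccnd1, Ccne2, Ccna2, Cdkn1c, Rb1, Mcm4, Aurkb, Foxm1 and Myc. Searched on both strands were E2F sites (either TTCCCGC or TTGGCGC or else TTCGCGC or else TTGCCGC), the cell cycle homology region CHR (TTTGAA), which the DREAM and B-MYB complexes bind in late genes, the CCAAT box (CCAAT), the E-box of MYC factors (CACGTG) and the GC box of SP factors (GGGCGG). An E2F site was found in 18 of the 35 windows (51.4%) against 17.8% of all windows, a CHR in 12 (34.3%) against 10.6%, a CCAAT box in 22 (62.9%) against 38.0%, a GC box in 30 (85.7%) against 67.8%, and an E-box in 2 (5.71%) against 10.2%. By role, E2F letters were present in 5 of 6 E2F and RB windows and 6 of 8 licensing windows but in 1 of 6 mitotic windows. The mitotic windows held a CHR in 5 of 6 and a CCAAT box in all 6. A match is a run of letters and was not tested as a bound site.

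The upstream part of 7 windows is given 5′ to 3′ on the gene's strand, ending at the base before the start, with the E2F, CHR, CCAAT and E-box letters in capitals. Mcm6 (chr1:128359706-128359855, minus strand) and Cdk1 (chr10:69352913-69353132, minus strand) show the E2F type and the mixed type, and Top2a (chr11:99024190-99024424, minus strand) the CHR and CCAAT type of a late gene. E2f8 (chr7:48881597-48881746, minus strand), Cdk6 (chr5:3343653-3343892, plus strand), Cdkn2b (chr4:89311033-89311232, minus strand) and Mycn (chr12:12941837-12942036, minus strand) are the promoters on which the comparisons turned.
Mcm6: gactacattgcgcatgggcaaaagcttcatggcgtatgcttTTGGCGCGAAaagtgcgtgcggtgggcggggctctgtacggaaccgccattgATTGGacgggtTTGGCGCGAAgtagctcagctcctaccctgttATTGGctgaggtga
Cdk1: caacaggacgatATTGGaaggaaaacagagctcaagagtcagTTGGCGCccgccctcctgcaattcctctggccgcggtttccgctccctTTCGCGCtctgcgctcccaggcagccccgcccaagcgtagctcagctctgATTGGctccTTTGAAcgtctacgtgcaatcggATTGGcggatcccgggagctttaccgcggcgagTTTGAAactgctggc
Top2a: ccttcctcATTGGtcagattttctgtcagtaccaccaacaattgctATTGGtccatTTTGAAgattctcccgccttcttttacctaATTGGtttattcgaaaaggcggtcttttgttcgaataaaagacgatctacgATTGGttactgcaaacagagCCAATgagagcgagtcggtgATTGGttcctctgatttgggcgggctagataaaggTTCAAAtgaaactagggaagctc
E2f8: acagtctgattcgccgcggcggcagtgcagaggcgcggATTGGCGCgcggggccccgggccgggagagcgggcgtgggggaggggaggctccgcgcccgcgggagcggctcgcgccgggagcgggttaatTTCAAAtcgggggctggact
Cdk6: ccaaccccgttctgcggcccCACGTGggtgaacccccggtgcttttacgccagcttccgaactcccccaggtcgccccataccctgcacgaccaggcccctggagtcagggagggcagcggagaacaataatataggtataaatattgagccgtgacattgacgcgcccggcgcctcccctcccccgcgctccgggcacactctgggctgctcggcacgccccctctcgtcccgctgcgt
Cdkn2b: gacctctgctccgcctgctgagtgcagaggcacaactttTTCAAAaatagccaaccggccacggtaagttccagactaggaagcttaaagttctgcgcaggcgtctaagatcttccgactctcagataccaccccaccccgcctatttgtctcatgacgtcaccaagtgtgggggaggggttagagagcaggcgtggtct
Mycn: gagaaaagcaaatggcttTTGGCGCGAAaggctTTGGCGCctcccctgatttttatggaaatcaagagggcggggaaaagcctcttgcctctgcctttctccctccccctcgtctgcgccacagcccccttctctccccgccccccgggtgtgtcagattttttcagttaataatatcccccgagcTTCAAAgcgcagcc
In Mcm6 each of the 2 long capital runs (TTGGCGCGAA) holds an E2F match on either strand, and these matches overlap, as they do in the longer run of Mycn. Cdk1 carries 2 E2F matches, 2 CHR and 3 CCAAT boxes, Top2a 2 CHR and 6 CCAAT boxes with no E2F match, and E2f8 an E2F match that overlaps a CCAAT box, with a CHR 20 bases before the start. Cdk6 has an E-box 220 bases before the start and Cdkn2b a CHR 161 bases before it, and neither has an E2F match. Of the 35 windows, 32 lay wholly inside the lead promoter peak of their gene. The printed Mycn run lay outside its lead peak, and part of it was inside a further Mycn promoter peak (chr12:12941545-12942001).

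These promoters were open in every group. Each of the 44 genes had a promoter peak with at least 8 counts in each library, and the lead peaks were 1164 bp wide at the median (990 bp for all promoter peaks) with a GC content of 60.17% (59.96% for all). Per length, as RPKM (CPM per kb of peak), 36 of the 44 stood above the median promoter peak, with a median percentile of 67.9. Against the 13740 lead promoter peaks of all genes, which is the like-for-like background, the median percentile was 64.4 and 32 of 44 stood above the median. E2f3, an activator E2F, had the highest level (96.5 RPKM, percentile 99.9) and E2f2, its paralog, the lowest (8.93 RPKM, percentile 18.9). By role the median percentile was 83.1 for cyclin E and Cdk2, 81.3 for licensing, 72.2 for the D-type cyclins and their kinases, 69.4 for the E2F and RB family, 65.6 for the inhibitors, 63.7 for cyclins A and B with Cdk1, 59.2 for the MYC, B-MYB and FOXM1 factors and 57.7 for the mitotic proteins. Licensing genes ranged from 18.9 RPKM (Cdc6) to 49.4 (Mcm4), and mitotic genes from 11.4 (Bub1) to 25.5 (Aurka), so that the ranges overlapped. Mcm4, Mcm7, Aurka and Foxm1 share their promoter peak with a neighbour on the other strand (Prkdc, Ap4m1, Cstf1 and Rhno1), and ATAC-seq cannot assign such a peak to either gene.

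**Figure D1:**
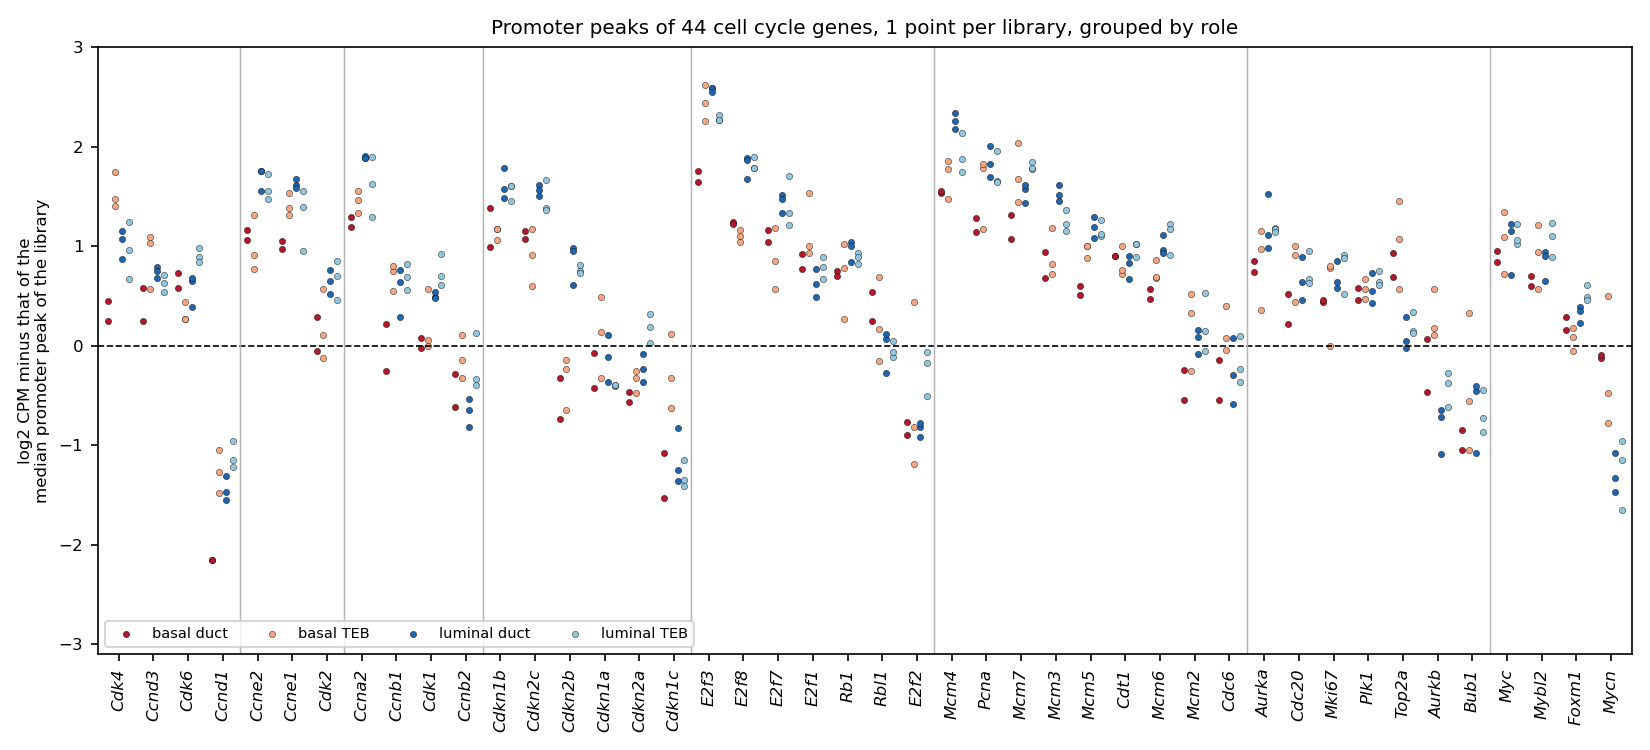
Level of the lead promoter peak of the 44 genes in each of the 11 libraries, as log2 CPM minus that of the median promoter peak of the same library, with 1 point per library and grey lines between roles. Most points lie above the dashed line of the median promoter, and the basal duct points are the lowest of the 4 groups for 27 genes.

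Set against the median promoter of the same library, which makes the value independent of how libraries are scaled, the members moved little between groups. The range of the 4 group means was 0.594 on the log2 scale at the median over members and 0.695 over all lead promoter peaks, beside a pooled SD within groups of 0.206 for the members. The mean was lowest in basal duct for 27 of the 44 genes (39.1% of all lead peaks were lowest there) and highest in luminal TEB for 16 (16.2% of all), in luminal duct for 14 (33.9%), in basal TEB for 12 (33.6%) and in basal duct for 2 (16.3%). Plk1, a mitotic kinase, had the narrowest range (0.146), and Cdkn2b (1.38), Cdk4 (1.19), Mycn (1.19) and Aurkb (1.10) the widest.

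The first comparison asks how the basal cells of growing tips differ from those of ducts. Of the 44 lead promoter peaks 10 were lower in basal TEB than in basal duct and 0 were higher (edgeR exact test, Benjamini-Hochberg adjusted p under 0.05 over all peaks). Of all 16630 promoter peaks 31.9% were lower and 0.673% higher, so that 10 of 44 was no larger a share than that of all promoters. The median log2 difference was −0.58 for the members and −0.64 for all promoter peaks, with 26 of the 44 above that median, and at an unadjusted p under 0.05 there were 21 lower and 0 higher members. The 10 were Cdk6, Ccne2, Cdkn1b, Cdkn2c, E2f7, E2f8, Rb1, Rbl1, Cdt1 and Foxm1. The call was kept in 9 of 12 alternatives at Cdk6, 8 at E2f7, 7 at Cdkn2c, E2f8 and Cdt1, 6 at Cdkn1b and Rbl1, 5 at Ccne2 and Foxm1 and 3 at Rb1. All promoters moved down together on this scale. With scaling factors computed from promoter peaks alone, the median was 0.02 for all promoters and 0.08 for the members, and 0 members were lower and 2 higher (Cdk4, log2 difference 1.07, and E2f3, 0.61), beside 543 lower and 772 higher of all promoter peaks. The count also turned on single libraries, with 5 members lower without basal TEB replicate 3 and 22 without basal TEB replicate 2. Of all promoter peaks 3180 of 16629 and 6996 of 16630 were lower in these fits. Leaving out a basal duct library left 1 in that group, and the median of all promoters was then −0.515 without replicate 1 and −0.74 without replicate 3.

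In luminal cells no member promoter passed the test. Of the 44 promoter peaks 0 were higher and 0 lower in luminal TEB than in luminal duct, beside 0.114% and 1.26% of all promoter peaks. The log2 differences ran from −0.46 to 0.48 with a median of −0.09 (−0.15 for all promoters), the smallest adjusted p was 0.11, and at an unadjusted p under 0.05 there were 1 higher and 6 lower. The quasi-likelihood test called 0, DESeq2 1 (E2f3, lower), and the fit after filterByExpr and the fit with a replicate block 2 each (E2f3 and Mcm4, both lower). Without luminal TEB replicate 2, 2 were lower (Ccne1 and Mcm4).

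The structure effect itself differed between the lineages at 5 promoters, in a test of the interaction over all 11 libraries (quasi-likelihood test). The TEB effect was lower in basal than in luminal cells at Cdk6, Foxm1, Cdt1, E2f7 and E2f8 and higher at 0, beside 13.9% lower and 1.08% higher of all promoter peaks, and the median interaction was −0.45 for members and −0.43 for all promoters. The call was kept in 16 of 17 alternatives at Cdk6, 8 at Cdt1 and Foxm1, 4 at E2f7 and 3 at E2f8. With promoter-based scaling the members called were Cdk6, still lower, and Cdk4 and E2f3, both higher. Of the 16007 promoter peaks tested, 680 were lower and 891 higher with that scaling. Leaving out 1 library at a time gave 1 to 13 members, with 13 without basal TEB replicate 2 and 1, which was Cdk6, without basal duct replicate 1, basal TEB replicate 1, luminal duct replicate 2, luminal duct replicate 3 or luminal TEB replicate 2.

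Between the lineages more promoters differed. In ducts 11 of the 44 were higher in basal cells and 2 lower, beside 43.8% and 12.0% of all promoter peaks, and the median difference was 0.17 for members and 0.35 for all promoters. With promoter-based scaling this split turned to 5 higher and 15 lower (median −0.15, and 0.02 for all promoters). Of all 16630 promoter peaks 4529 were higher and 4611 lower with that scaling. Of the 44 members, 15 stood above the median of all promoters. In TEBs 3 were higher in basal cells and 6 lower, beside 10.4% and 14.7% of all promoter peaks, with a median of −0.23 for members and −0.07 for all promoters. With promoter-based scaling it was 5 higher and 6 lower, beside 2255 higher and 2246 lower of all 16630 promoter peaks. Without luminal TEB replicate 2, and likewise without replicate 3, 1 higher and 2 lower were left, and 5 members passed without basal TEB replicate 1 or without luminal TEB replicate 1. In ducts the call was kept in all 12 alternatives at Mycn, Top2a, Aurkb, Rbl1 and Cdkn2b, 11 at Ccnb2 and E2f1, 10 at Cdt1, 9 at Cdk6 and E2f3, 8 at Plk1 and 7 at E2f2 and Foxm1. In TEBs it was kept in all 13 at Cdkn2b and E2f8, 9 at Cdk6, Ccne2, Cdkn1c, Top2a and Mycn, 8 at Cdkn2c and 7 at E2f7.

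**Figure D2:**
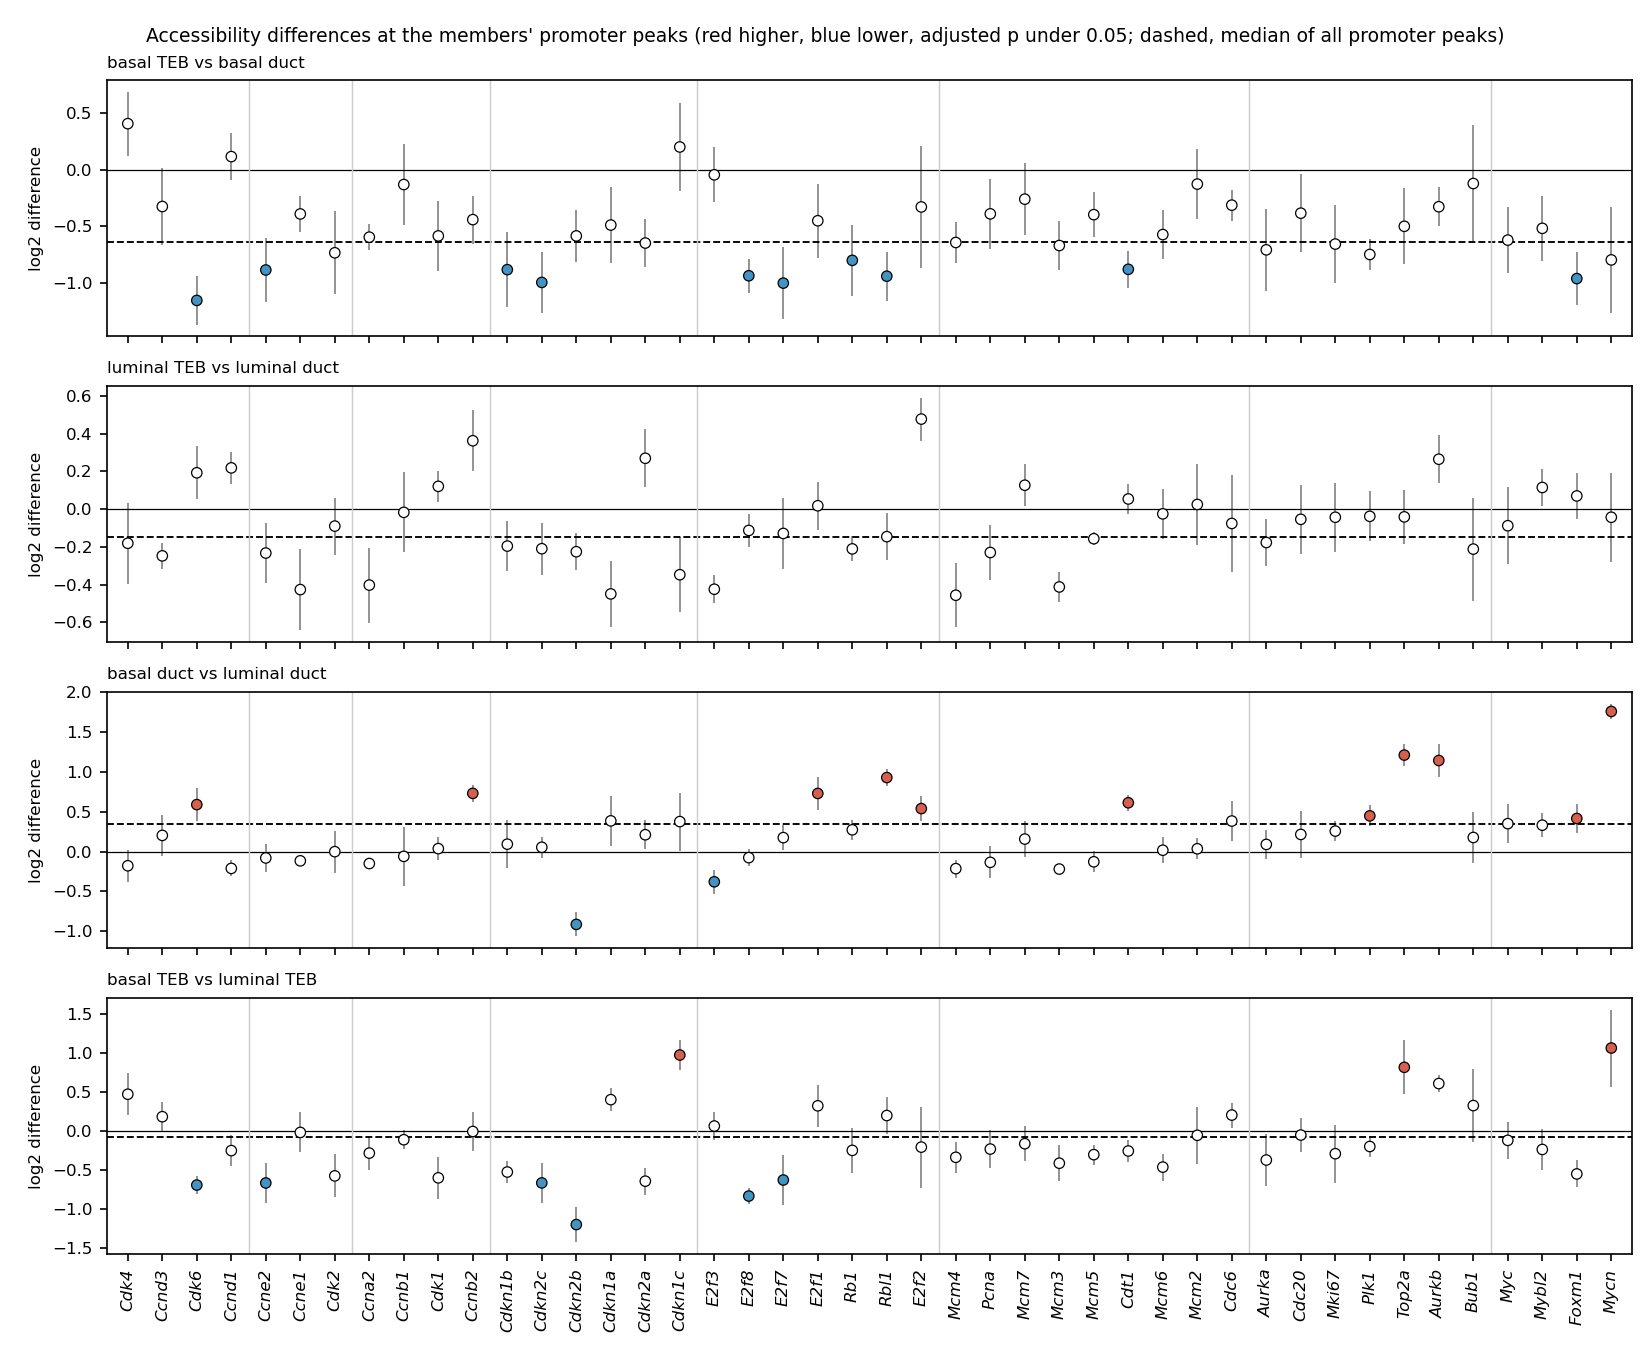
Log2 difference of each lead promoter peak in the 4 comparisons, with bars of ± 1 SE, grey lines between roles, filled points for adjusted p under 0.05 and a dashed line at the median of all promoter peaks. The points of basal TEB against basal duct scatter around a dashed line at −0.64, and in ducts Mycn, Top2a and Aurkb stand highest in basal cells and Cdkn2b lowest.

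**Figure D3:**
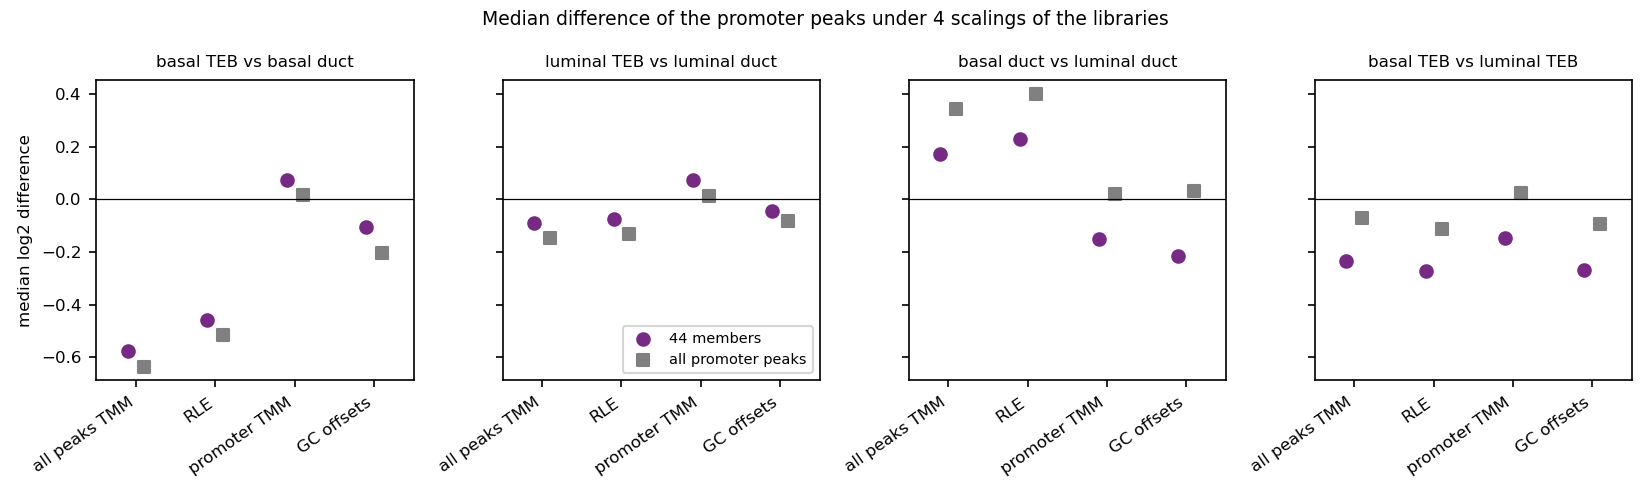
Median log2 difference of the 44 lead promoter peaks and of all promoter peaks under 4 scalings of the libraries (TMM over all peaks, relative log expression, TMM over promoter peaks, offsets within bins of GC content), 1 panel per comparison. In basal TEB against basal duct both medians move from −0.58 and −0.64 to 0.08 and 0.02 when promoters set the scale, and the members stay above all promoters in the structure comparisons and below them in the lineage comparisons.

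Among the D-type cyclins and their kinases, Cdk6 and Cdk4 went apart. Cdk6 (chr5:3343565-3344659), a kinase of RB, had 42.4 and 33.4 CPM in the basal duct libraries, 14.8, 18.00 and 18.2 in basal TEB, 26.5, 26.3 and 19.8 in luminal duct and 27.99, 28.7 and 26.4 in luminal TEB. In CPM the basal TEB libraries were the lowest of all and did not overlap with any other group. Relative to the median promoter of each library, basal TEB replicate 3 (0.437) was above luminal duct replicate 3 (0.384). The log2 difference from basal duct was −1.15 ± 0.21 (SE, adjusted p = 0.0015), which is −0.52 relative to the median difference of all promoter peaks. Luminal TEB differed from luminal duct by 0.19 ± 0.14 (adjusted p = 0.77). The interaction was −1.27 ± 0.24 (adjusted p = 0.0022). Basal cells were also below luminal cells in TEBs (−0.69 ± 0.11, adjusted p = 0.023) and above them in ducts (0.59 ± 0.21, adjusted p = 0.001). With promoter-based scaling the difference of basal TEB from basal duct (−0.49, adjusted p = 0.20) and that of the ducts (0.26, adjusted p = 0.099) did not pass. The interaction (−0.87, adjusted p = 0.012) and the difference in TEBs (−0.60, adjusted p = 0.028) did.

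Cdk4 (chr10:127063074-127064157), the partner kinase, had 34.8 and 26.3 CPM in the basal duct libraries, 34.8, 50.9 and 35.9 in basal TEB, 30.96, 36.8 and 32.03 in luminal duct and 22.5, 36.9 and 28.6 in luminal TEB. All 3 basal TEB libraries reached or passed the higher basal duct library, and basal TEB replicate 2 was the highest of all. The log2 difference of 0.41 ± 0.28 did not pass (adjusted p = 0.38), but relative to the median difference of all promoter peaks it was 1.05. With promoter-based scaling it was 1.07 (adjusted p = 2.4e-04). Ccnd1 (chr7:144939698-144939917), which encodes cyclin D1, had a promoter peak of only 220 bp, with 5.36 and 4.62 CPM in the basal duct libraries, 4.09, 5.87 and 6.21 in basal TEB, 5.72, 5.22 and 5.80 in luminal duct and 6.04, 6.28 and 7.25 in luminal TEB. No comparison of it passed with scaling over all peaks, and the basal TEB and basal duct libraries overlapped. The lead promoter peak of Ccnd3 ranged from 19.9 to 38.2 CPM over the 11 libraries, and no comparison passed there. Its upstream promoter peak did pass and is given below with the further promoter peaks.

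Of the cyclin E group, which takes cells into S phase, Ccne2 was lower in basal TEB when libraries were scaled over all peaks. Ccne2 (chr4:11190474-11191910) had 57.3 and 46.8 CPM in the basal duct libraries, 23.5, 37.6 and 23.1 in basal TEB, 57.7, 55.97 and 44.9 in luminal duct and 39.8, 51.6 and 43.5 in luminal TEB. In CPM the basal TEB libraries lay below those of every other group. Its log2 difference was −0.89 ± 0.29 from basal duct (adjusted p = 0.016) and −0.67 ± 0.26 from luminal TEB (adjusted p = 0.023). With promoter-based scaling the former was −0.23 (adjusted p = 0.56) and the latter −0.58 (adjusted p = 0.017). Ccne1 (chr7:38107167-38108321) had 50.1 and 46.5 CPM in the basal duct libraries, 32.7, 43.8 and 33.7 in basal TEB, 52.2, 49.6 and 49.01 in luminal duct and 27.4, 45.9 and 38.9 in luminal TEB. In CPM the TEB libraries lay below the duct libraries in both lineages, by −0.39 ± 0.16 in basal cells (adjusted p = 0.37) and −0.43 ± 0.22 in luminal cells (adjusted p = 0.21), neither past the threshold. Cdk2 ranged from 11.2 to 31.0 CPM with no call.

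The cyclins of S phase and mitosis gave a single call. Ccnb2 (chr9:70421191-70422157), a B-type cyclin, had 16.4 and 18.2 CPM in the basal duct libraries, 9.71, 16.04 and 11.97 in basal TEB, 9.33, 11.01 and 9.46 in luminal duct and 15.4, 12.02 and 10.9 in luminal TEB. Basal duct lay above luminal duct in all libraries (0.73 ± 0.11, adjusted p = 9.2e-04). Cdk1 (chr10:69352219-69353373), the mitotic kinase, had 26.9 and 21.9 CPM in the basal duct libraries, 12.8, 22.3 and 13.3 in basal TEB, 23.8, 22.8 and 22.1 in luminal duct and 26.9, 25.1 and 22.4 in luminal TEB. Its basal TEB replicates 1 and 3 were the lowest of the 11 libraries and replicate 2 lay with the rest, so that the difference from basal duct (−0.58 ± 0.31) did not pass (adjusted p = 0.20). Ccnb1 (chr13:100786190-100787158) had 29.6 and 18.5 CPM in the basal duct libraries, 20.96, 21.9 and 23.5 in basal TEB, 26.3, 27.8 and 18.5 in luminal duct and 20.9, 27.3 and 23.7 in luminal TEB. All its groups overlapped, and its log2 differences lay between −0.13 and −0.02. Ccna2 ranged from 34.1 to 63.0 CPM with no call.

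Among the CDK inhibitors, Cdkn2b was the member most below the luminal level in basal TEB. Cdkn2b (chr4:89310411-89311370), an INK4 inhibitor of Cdk4 and Cdk6, had 15.04 and 17.6 CPM in the basal duct libraries, 7.67, 12.5 and 11.97 in basal TEB, 25.9, 32.5 and 29.4 in luminal duct and 23.9, 25.7 and 25.7 in luminal TEB. Every luminal library was above every basal library. The log2 difference of basal from luminal cells was −0.91 ± 0.15 in ducts (adjusted p = 2.1e-06) and −1.20 ± 0.23 in TEBs (adjusted p = 1.3e-04).

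Cdkn1c (chr7:143460807-143461312), a Cip/Kip inhibitor, went the other way, with 11.7 and 7.39 CPM in the basal duct libraries, 13.3, 11.7 and 8.42 in basal TEB, 6.79, 8.96 and 5.59 in luminal duct and 5.21, 5.46 and 6.26 in luminal TEB. Basal TEB lay above luminal TEB in all libraries (0.98 ± 0.19, adjusted p = 0.020), while basal duct and luminal duct overlapped (0.38 ± 0.36, adjusted p = 0.20). Cdkn1b (chr6:134919690-134920799), another of that family, had 66.9 and 44.5 CPM in the basal duct libraries, 26.1, 34.05 and 30.6 in basal TEB, 50.7, 56.9 and 42.99 in luminal duct and 43.4, 47.5 and 40.5 in luminal TEB. Its basal TEB libraries were the lowest of all groups in CPM (−0.88 ± 0.33 from basal duct, adjusted p = 0.015). Relative to the median promoter of each library, basal duct (1.38 and 0.99) and basal TEB (1.06, 1.17 and 1.17) overlapped. With promoter-based scaling the difference was −0.21 (adjusted p = 0.61). Cdkn2c (chr4:109665631-109667309), an INK4 inhibitor, had 56.97 and 47.1 CPM in the basal duct libraries, 23.5, 34.05 and 20.4 in basal TEB, 48.4, 50.8 and 45.4 in luminal duct and 37.3, 49.5 and 37.9 in luminal TEB. Cdkn2c was likewise lowest in basal TEB in CPM, with a log2 difference of −1.0 ± 0.27 from basal duct (adjusted p = 0.0057) and −0.67 ± 0.25 from luminal TEB (adjusted p = 0.026). With promoter-based scaling the former was −0.34 (adjusted p = 0.35) and the latter −0.58 (adjusted p = 0.021).

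The classic arrest genes showed no call at their lead promoter peaks. Some of their other peaks passed. Among them, a Cdkn1a peak 0.5 kb downstream was lower in basal TEB than in basal duct (−1.02) and higher in basal than in luminal duct (0.55), with an interaction of −1.04. A Cdkn2a peak 1.92 kb upstream was lower in basal cells in ducts (−2.22) and TEBs (−3.73), on 6 counts in basal duct and 2 in basal TEB. Cdkn1a (chr17:29093477-29094127), the Cip/Kip inhibitor of the damage response, had 24.04 and 16.3 CPM in the basal duct libraries, 17.4, 11.7 and 14.6 in basal TEB, 15.5, 17.5 and 11.6 in luminal duct and 10.4, 11.5 and 10.9 in luminal TEB. The libraries of luminal TEB were below those of luminal duct (−0.45 ± 0.17, adjusted p = 0.42). Cdkn2a (chr4:89294379-89295674), which encodes an INK4 inhibitor and ARF, had 18.2 and 14.8 CPM in the basal duct libraries, 8.69, 11.7 and 11.1 in basal TEB, 14.2, 15.3 and 11.6 in luminal duct and 14.3, 17.5 and 18.1 in luminal TEB. All basal TEB libraries were below those of basal duct and of luminal TEB, by −0.65 ± 0.21 from basal duct (adjusted p = 0.17) and −0.64 ± 0.17 from luminal TEB (adjusted p = 0.075), neither of which passed.

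In the E2F and RB family 4 of 7 promoters were lower in basal TEB than in basal duct, beside 31.9% of all promoter peaks, and none of the 4 was called with promoter-based scaling (adjusted p 0.36 to 0.79). Among them are both atypical E2Fs, which repress the targets of the activators. E2f8 (chr7:48880508-48882168) had 60.9 and 52.2 CPM in the basal duct libraries, 28.1, 32.5 and 27.9 in basal TEB, 54.5, 61.01 and 56.1 in luminal duct and 49.4, 58.2 and 51.05 in luminal TEB. The basal TEB libraries stood apart below all others. The differences were −0.94 ± 0.15 from basal duct (adjusted p = 0.0068), −0.83 ± 0.10 from luminal TEB (adjusted p = 0.0018) and −0.75 ± 0.16 for the interaction (adjusted p = 0.039). E2f7 (chr10:110744824-110745997) had 57.5 and 46.2 CPM in the basal duct libraries, 18.4, 34.4 and 24.4 in basal TEB, 42.8, 47.02 and 42.6 in luminal duct and 32.9, 50.8 and 37.2 in luminal TEB. It fell by 1.0 ± 0.32 from basal duct (adjusted p = 0.0065), with an interaction of −0.79 ± 0.36 (adjusted p = 0.048). It was also below luminal TEB by −0.63 ± 0.32 (adjusted p = 0.043), where basal TEB replicate 2 overlapped the luminal libraries.

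The promoters of pocket proteins, which bind and silence E2Fs, were lower, as was the median of all promoters. Relative to the median difference of all promoter peaks, the difference between basal TEB and basal duct was −0.16 for Rb1 and −0.30 for Rbl1. Rb1 (chr14:73324871-73326574) had 43.2 and 36.4 CPM in the basal duct libraries, 14.8, 25.8 and 27.5 in basal TEB, 30.3, 33.96 and 30.5 in luminal duct and 27.2, 28.7 and 26.02 in luminal TEB. Its basal TEB libraries were below both basal duct libraries (−0.80 ± 0.31, adjusted p = 0.039) and overlapped luminal TEB. Rbl1 (chr2:157203686-157205133), a relative of Rb1, had 30.2 and 32.4 CPM in the basal duct libraries, 13.8, 13.3 and 21.7 in basal TEB, 13.8, 16.98 and 16.3 in luminal duct and 12.9, 15.8 and 13.8 in luminal TEB. In CPM basal duct stood above all other groups, by −0.94 ± 0.22 for basal TEB against basal duct (adjusted p = 0.015) and 0.93 ± 0.11 for basal against luminal duct (adjusted p = 6.4e-07).

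The activator E2Fs differed by lineage in ducts, and none had a lineage call in TEBs. E2f1 and E2f2 were higher in basal duct, as were 43.8% of all promoter peaks, and the E2f3 lead peak was lower, as were 12.0%. The duct call was lost at E2f2 with promoter-based scaling (0.21) and with GC-bin offsets (0.23), and at E2f1 with GC-bin offsets (0.26). E2f1 (chr2:154569286-154570578) had 48.5 and 38.05 CPM in the basal duct libraries, 25.1, 43.8 and 25.7 in basal TEB, 28.8, 25.2 and 21.3 in luminal duct and 26.3, 24.6 and 25.4 in luminal TEB. Both basal duct libraries were above all luminal ones (0.73 ± 0.21 in ducts, adjusted p = 3.4e-05). Its basal TEB replicate 2 was near basal duct while replicates 1 and 3 were near the luminal level. E2f3 (chr13:29985931-29986774) had 86.5 and 70.1 CPM in the basal duct libraries, 68.5, 93.9 and 65.2 in basal TEB, 103, 100 and 90.5 in luminal duct and 69.2, 77.9 and 71.5 in luminal TEB. At this lead peak basal duct was below luminal duct in all libraries (−0.38 ± 0.15, adjusted p = 0.016), while basal TEB overlapped basal duct in CPM. Relative to the median difference of all promoter peaks, the difference of basal TEB from basal duct was 0.59. The further E2f3 promoter peaks went the other way and were called higher in basal than in luminal duct (0.42 and 0.74). E2f2 (chr4:136171742-136172974) had 14.7 and 11.7 CPM in the basal duct libraries, 5.11, 8.22 and 18.2 in basal TEB, 9.33, 8.40 and 8.60 in luminal duct and 12.3, 10.7 and 13.8 in luminal TEB. It was higher in basal than in luminal duct (0.54 ± 0.16, adjusted p = 0.031), and its basal TEB libraries were spread over a wider range than any other group.

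The replication genes kept their promoters open, with few differences when libraries were scaled over all peaks. Cdt1 (chr8:122567080-122568550), which loads the replicative helicase, had 47.7 and 41.9 CPM in the basal duct libraries, 20.4, 25.4 and 27.04 in basal TEB, 30.1, 26.1 and 28.4 in luminal duct and 28.8, 31.4 and 27.3 in luminal TEB. Basal duct lay above every other library in CPM, with −0.88 ± 0.17 for basal TEB (adjusted p = 0.014), 0.61 ± 0.10 over luminal duct (adjusted p = 3.4e-04) and an interaction of −0.86 ± 0.17 (adjusted p = 0.025). With promoter-based scaling none of these passed (−0.22, adjusted p = 0.61, then 0.29, adjusted p = 0.054, and interaction −0.455, adjusted p = 0.16). Relative to the median promoter the range of its group means was only 0.178. Mcm2 (chr6:88898384-88898967), a subunit of that helicase, had 17.2 and 18.6 CPM in the basal duct libraries, 10.2, 21.5 and 16.8 in basal TEB, 17.8, 18.1 and 14.2 in luminal duct and 13.4, 16.9 and 21.1 in luminal TEB. All 4 groups overlapped, and its log2 differences lay between −0.13 and 0.03. Pcna (chr2:132252459-132253582), the sliding clamp, had 62.4 and 49.5 CPM in the basal duct libraries, 43.5, 54.00 and 30.6 in basal TEB, 60.4, 66.8 and 49.6 in luminal duct and 55.4, 49.2 and 46.1 in luminal TEB. Basal TEB replicate 3 was its lowest library and no comparison passed with scaling over all peaks. The other members of the group had no call on that scale. With promoter-based scaling Mcm3 (−0.54), Mcm4 (−0.54), Mcm5 (−0.46), Mcm6 (−0.31) and Pcna (−0.46) were lower in basal than in luminal duct (adjusted p 8e-06 to 0.039). Of all 16630 promoter peaks 4611 were lower there with that scaling. Over the 11 libraries Mcm3 ranged from 22.0 to 47.0 CPM, Mcm4 from 37.7 to 83.6, Mcm5 from 23.0 to 38.7, Mcm6 from 19.9 to 37.8, Mcm7 from 34.2 to 63.6 and Cdc6, the other loader, from 9.89 to 20.03.

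The mitotic genes were higher in basal than in luminal duct at 3 of 7 promoters, a share near the 43.8% of all promoter peaks, and no structure comparison passed. Top2a (chr11:99023703-99025062), the topoisomerase that untangles replicated chromosomes, had 41.4 and 42.7 CPM in the basal duct libraries, 18.4, 41.5 and 28.4 in basal TEB, 20.6, 16.8 and 14.8 in luminal duct and 17.8, 16.9 and 15.8 in luminal TEB. All basal libraries were above the luminal TEB libraries, and basal TEB replicate 1 was below luminal duct replicate 1. The log2 difference was 1.21 ± 0.14 in ducts (adjusted p = 1.2e-11) and 0.82 ± 0.35 in TEBs (adjusted p = 0.013). Aurkb (chr11:69045367-69046241), the kinase of the chromosomal passenger complex, had 18.2 and 23.3 CPM in the basal duct libraries, 18.4, 16.04 and 15.1 in basal TEB, 7.63, 9.70 and 9.46 in luminal duct and 10.7, 9.84 and 11.9 in luminal TEB. Every basal library was above every luminal one, by 1.14 ± 0.21 in ducts (adjusted p = 1.5e-07) and 0.61 ± 0.10 in TEBs (adjusted p = 0.090).

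Plk1 (chr7:122158574-122159816), a kinase of mitotic entry, had 35.1 and 33.4 CPM in the basal duct libraries, 18.4, 23.9 and 18.6 in basal TEB, 27.99, 23.9 and 20.4 in luminal duct and 23.9, 24.04 and 22.4 in luminal TEB. Basal duct was above luminal duct (0.45 ± 0.13, adjusted p = 0.014) and above basal TEB (−0.75 ± 0.14 for basal TEB, adjusted p = 0.051). With promoter-based scaling these differences were 0.125 (adjusted p = 0.46) and −0.098 (adjusted p = 0.88). Relative to the median promoter the basal duct mean of Plk1 (0.52) was the lowest of its groups, within a range of only 0.146. Mki67 (chr7:135715692-135717006), whose product coats mitotic chromosomes and serves as a marker of proliferation, had 34.6 and 30.7 CPM in the basal duct libraries, 12.3, 25.8 and 23.5 in basal TEB, 25.2, 29.7 and 23.6 in luminal duct and 20.3, 29.2 and 27.00 in luminal TEB. The basal TEB libraries were below basal duct without passing (−0.66 ± 0.35, adjusted p = 0.12), and the luminal structures overlapped (−0.04 ± 0.18, adjusted p = 1.0). Relative to the median promoter the mean level of Mki67 was 0.526 ± 0.455 (SD) in basal TEB and 0.449 ± 0.013 in basal duct, and 0.771 ± 0.216 in luminal TEB and 0.689 ± 0.144 in luminal duct, differences within the spread of the TEB libraries. Aurka, a spindle pole kinase, ranged from 15.8 to 46.1 CPM with no call. Bub1, of the spindle checkpoint, ranged from 6.21 to 18.8 CPM, and Cdc20, which starts anaphase, from 18.2 to 36.6, neither with a call.

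Of the transcription factors Mycn had the strongest lineage difference of all 44 promoters in ducts. Mycn (chr12:12942164-12942919), a MYC family factor, had 23.2 and 20.8 CPM in the basal duct libraries, 8.69, 21.1 and 7.54 in basal TEB, 5.72, 6.16 and 6.88 in luminal duct and 6.04, 7.65 and 4.28 in luminal TEB. Both basal duct libraries were well above all luminal libraries. Basal TEB replicate 2 was at the basal duct level, and replicates 1 and 3 were nearer to the luminal libraries, replicate 3 overlapping them. The difference was 1.76 ± 0.10 in ducts (adjusted p = 5.7e-15) and 1.07 ± 0.49 in TEBs (adjusted p = 0.019). The further Mycn promoter peak that holds part of the printed sequence differed more, with 14.1 and 13.7 CPM in basal duct, 10.2, 11.7 and 7.54 in basal TEB and 1.27 to 3.01 in the luminal libraries. There all basal libraries were above all luminal ones (2.56 ± 0.32 in ducts, adjusted p = 7.4e-18, and 2.12 ± 0.30 in TEBs, adjusted p = 8e-06).

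Foxm1 (chr6:128362250-128363410), which acts on the genes of mitotic entry, had 30.99 and 24.8 CPM in the basal duct libraries, 11.8, 16.8 and 14.2 in basal TEB, 22.1, 20.7 and 17.6 in luminal duct and 19.8, 23.5 and 20.1 in luminal TEB. Its basal TEB libraries were the lowest of all groups in CPM (−0.96 ± 0.23 from basal duct, adjusted p = 0.013, interaction −0.95 ± 0.25, adjusted p = 0.027), in a peak shared with Rhno1. Basal duct was slightly above luminal duct (0.41 ± 0.18, adjusted p = 0.031). With promoter-based scaling none of these Foxm1 differences passed (−0.30, adjusted p = 0.52, then interaction −0.55, adjusted p = 0.14, and 0.088, adjusted p = 0.65). Myc (chr15:61984777-61985836), the ubiquitous MYC factor, had 49.6 and 40.05 CPM in the basal duct libraries, 26.6, 38.4 and 22.2 in basal TEB, 37.7, 38.4 and 24.9 in luminal duct and 33.2, 31.4 and 30.6 in luminal TEB. Basal TEB was below basal duct without passing (−0.62 ± 0.29, adjusted p = 0.12), and no other comparison passed. Mybl2, which encodes B-MYB, ranged from 18.4 to 41.6 CPM at its promoter with no call.

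Outside the promoters the picture was more varied. The 153 other peaks lay within the gene body (85, of which 64 in introns only and 21 over an exon or UTR) or in the flanks (68), 17 of them at the promoter of another gene, and 8 members had none. At the median they were 2.09 below the median promoter on the log2 scale, and 18 were above the lead promoter of their own gene.

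Between basal TEB and basal duct 3 of the 153 other peaks were higher and 13 lower, beside 6.24% higher and 7.9% lower among all other peaks of protein-coding genes, with a median of −0.11 (0.04 for all). A peak in Ccnd1 9.91 kb downstream of the start, over the UTR at the far end of the gene (chr7:144929255-144929963), had 1.03 and 1.23 CPM in the basal duct libraries, 7.16, 1.56 and 7.09 in basal TEB, 26.5, 22.4 and 15.1 in luminal duct and 25.2, 24.9 and 24.7 in luminal TEB. The peak also overlaps another protein-coding gene, LTO1. It was higher in basal TEB than in basal duct, clearly in replicates 1 and 3, which stayed below the luminal libraries, and hardly in replicate 2 (2.18 ± 0.64 from basal duct, adjusted p = 0.011, interaction 2.01 ± 0.68, adjusted p = 0.0091). An exonic peak in Aurka at 6.91 kb (chr2:172363197-172363598) had 0.570 and 0.154 CPM in the basal duct libraries, 5.11, 0.783 and 2.66 in basal TEB, 11.4, 11.4 and 11.6 in luminal duct and 11.8, 11.8 and 9.88 in luminal TEB. The order of its groups was the same (2.77 ± 0.74 for basal TEB, adjusted p = 0.030). An intronic peak of E2f3 at 63.52 kb rested on 1 count in basal duct and 11 in basal TEB, a ratio of 24.8 with a 95% counting interval of 3.61 to 1068.

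The lower peaks were led by Mybl2 and Mki67. The Mybl2 peak 24.34 kb downstream, intronic (chr2:163079032-163079413), had 14.7 and 13.4 CPM in the basal duct libraries, 3.58, 5.09 and 4.88 in basal TEB, 0.848, 1.12 and 1.93 in luminal duct and 0.549, 1.64 and 1.65 in luminal TEB. Basal TEB stood between basal duct and the luminal libraries (−1.62 ± 0.17, adjusted p = 6.6e-04). The exonic Mki67 peak at 17.52 kb (chr7:135698336-135698839) had 6.50 and 5.24 CPM in the basal duct libraries, 1.02, 0.783 and 1.33 in basal TEB, 1.70, 0.933 and 1.505 in luminal duct and 0.823, 0.546 and 0.659 in luminal TEB. It was high in basal duct alone (−2.48 ± 0.22 for basal TEB, adjusted p = 8.7e-04). Also lower in basal TEB were peaks at the March9 promoter 3.78 kb upstream of Cdk4 (−2.17 ± 0.43, adjusted p = 0.0016), over an exon of E2f2 at 7.62 kb (−1.21 ± 0.36, adjusted p = 0.0029), at the Elovl1 promoter 8.85 kb downstream of Cdc20 (−1.06 ± 0.22, adjusted p = 0.0032) and in an intron of Cdkn1a at 0.5 kb (−1.02 ± 0.25, adjusted p = 0.0054). Without basal duct replicate 1, 0 other peaks passed, and without basal duct replicate 3, 2 did, while 26 passed without basal TEB replicate 2.

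In luminal cells 0 of the 153 other peaks were higher and 0 lower in TEB than in duct, beside 0.325% and 0.302% of all other peaks, with 7 higher and 5 lower at an unadjusted p under 0.05 and a median of 0.01 (0.03 for all). DESeq2 and the quasi-likelihood test called 0 as well. The interaction passed at 7 higher and 6 lower of the 138 peaks tested, beside 6.69% and 5.66% of all.

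Many of these peaks differed between the lineages, as other peaks did. In ducts 33 of the 153 were higher and 57 lower in basal cells, beside 31.7% and 38.4% of all other peaks, with a median of −0.14 (−0.12 for all). In TEBs 12 were higher and 41 lower, beside 16.5% and 22.1% of all, with a median of −0.38 (−0.13 for all). The comparisons share no library, and 50 peaks passed in both, 12 higher in basal cells, 38 lower and 0 in opposite directions. That is 32.7% of the 153, beside 33.6% of all other peaks. Of the 28412 among all other peaks that passed in both, 11143 were higher in basal cells, 16672 lower and 597 in opposite directions.

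Mybl2 carried the clearest pair of opposite sites. A peak over an exon 20.11 kb downstream of its start (chr2:163074798-163075883) had 82.7 and 74.7 CPM in the basal duct libraries, 46.5, 96.7 and 65.6 in basal TEB, 3.82, 3.54 and 4.94 in luminal duct and 2.74, 8.20 and 5.27 in luminal TEB. Every basal library was several times above every luminal one (4.20 ± 0.15 in ducts, adjusted p = 1.1e-93, and 3.69 ± 0.51 in TEBs, adjusted p = 8.8e-27). The peak had more CPM than the Mybl2 promoter itself in every basal library. A peak 2.54 kb upstream of the same gene (chr2:163051660-163052148) had 0.798 and 0.924 CPM in the basal duct libraries, 4.09, 1.17 and 1.77 in basal TEB, 23.3, 22.9 and 15.1 in luminal duct and 17.6, 20.5 and 13.8 in luminal TEB. It was open in luminal cells (−4.62 ± 0.22 for basal cells in ducts, adjusted p = 2.3e-42, and −2.93 ± 0.42 in TEBs, adjusted p = 3.7e-11). The promoter between them had no call in either.

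**Figure D4:**
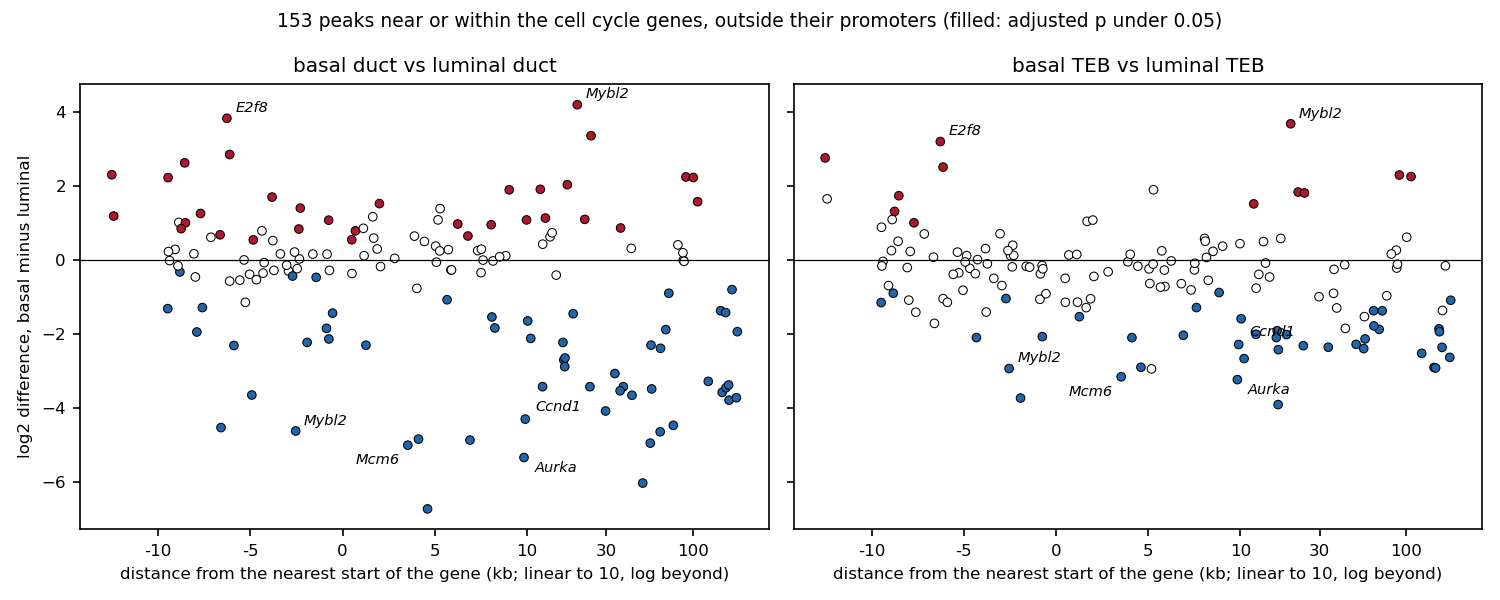
Log2 difference of basal from luminal cells at the 153 other peaks against their distance from the nearest start of the gene (kb, linear up to 10 and logarithmic beyond, negative upstream), in ducts and in TEBs, with filled points for adjusted p under 0.05. The Mybl2 peaks 20.11 kb downstream and 2.54 kb upstream lie on opposite sides of 0 in both panels, and beyond 30 kb inside the genes most called points are lower in basal cells.

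Further basal sites stood upstream of E2f8 and in Cdk6, where most sites were luminal. The peak 6.27 kb upstream of E2f8 (chr7:48887862-48889081) had 45.4 and 40.4 CPM in the basal duct libraries, 14.3, 50.5 and 22.2 in basal TEB, 4.24, 1.31 and 3.22 in luminal duct and 4.39, 3.28 and 1.65 in luminal TEB. It was basal in both structures (3.83 ± 0.45 in ducts, adjusted p = 4.4e-60, and 3.21 ± 0.62 in TEBs, adjusted p = 8.3e-14), where the E2f8 promoter was lower in basal TEB than in luminal TEB. Of the 19 other peaks of Cdk6, 4 were higher and 14 lower in basal cells in ducts, and 1 higher and 10 lower in TEBs. The 1 that was higher in TEBs, an intronic peak at 106.8 kb (chr5:3451113-3451708) had 5.58 and 4.62 CPM in the basal duct libraries, 4.60, 5.09 and 8.87 in basal TEB, 1.06, 1.49 and 2.36 in luminal duct and 1.10, 1.09 and 1.65 in luminal TEB. All its basal libraries were above all luminal ones (1.58 ± 0.30 in ducts, adjusted p = 1.1e-04, and 2.26 ± 0.30 in TEBs, adjusted p = 3.8e-04).

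Luminal sites lay inside Mcm6, Aurka and Ccnd1. The exonic Mcm6 peak at 3.54 kb (chr1:128355594-128356110) had 0.456 and 0.462 CPM in the basal duct libraries, 3.07, 1.56 and 1.77 in basal TEB, 14.6, 16.8 and 12.5 in luminal duct and 17.01, 24.9 and 14.5 in luminal TEB. It was close to shut in basal duct and low in basal TEB (−5.0 ± 0.12 for basal cells in ducts, adjusted p = 7.3e-36, and −3.15 ± 0.30 in TEBs, adjusted p = 7.2e-13). The Mcm6 promoter next to it had no lineage call with scaling over all peaks. The intronic Aurka peak at 9.84 kb (chr2:172360228-172360662) had 0.456 and 0.154 CPM in the basal duct libraries, 1.02, 1.17 and 1.33 in basal TEB, 13.4, 14.6 and 12.2 in luminal duct and 14.00, 10.1 and 10.2 in luminal TEB. Its basal libraries were all under the luminal ones (−5.33 ± 0.35 in ducts, adjusted p = 4.9e-35, and −3.23 ± 0.16 in TEBs, adjusted p = 1e-09). The Ccnd1 site named above differed by −4.30 ± 0.26 in ducts (adjusted p = 5.2e-40) and −2.28 ± 0.59 in TEBs (adjusted p = 5.1e-10). The Ccnd1 promoter had no lineage call with scaling over all peaks. With GC-bin offsets it was lower in basal than in luminal duct (−0.69, quasi-likelihood test, adjusted p = 0.031).

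**Figure D5:**
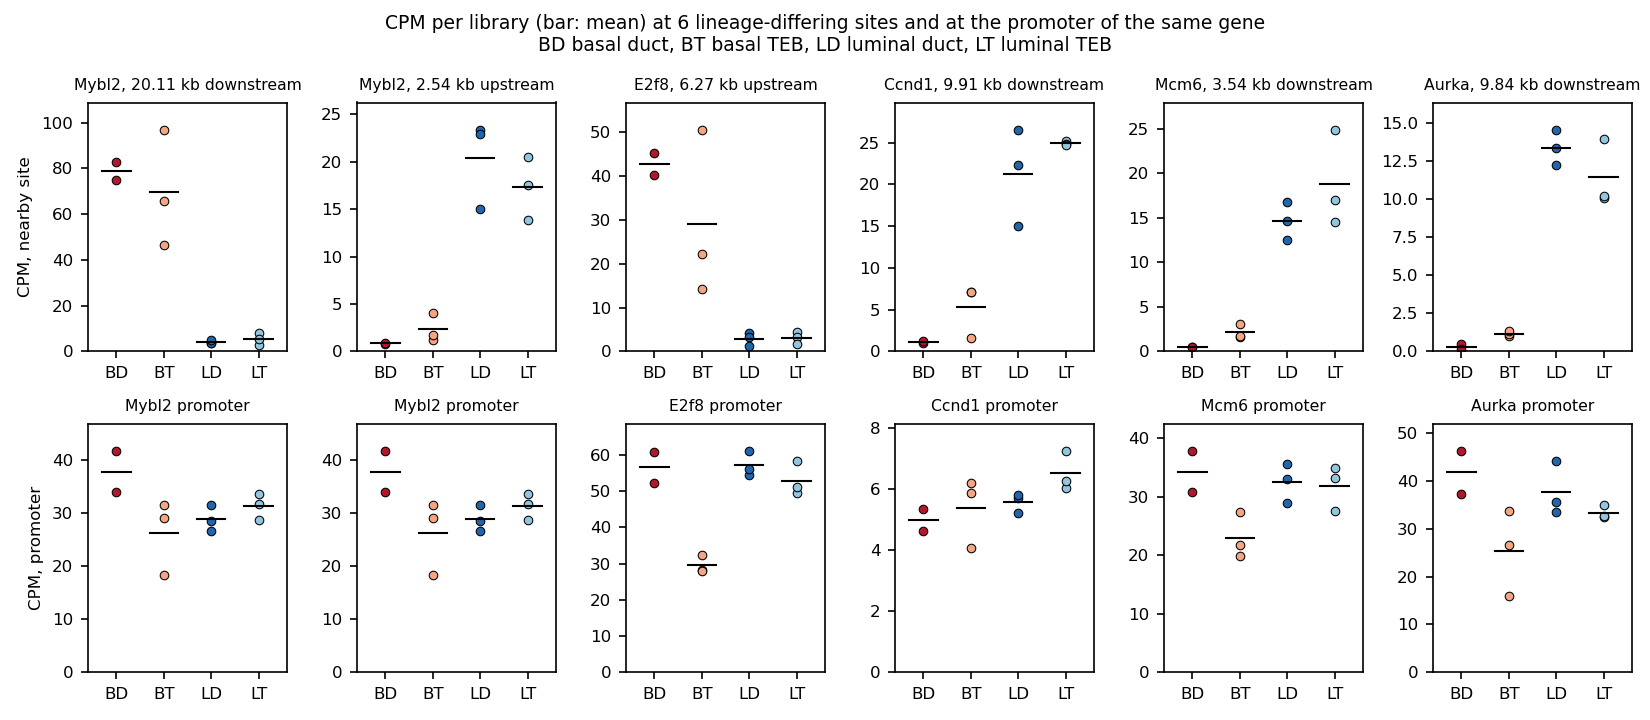
CPM in each library, with a bar at the group mean, at 6 sites that differed between the lineages (upper row) and at the lead promoter of the same gene (lower row). The sites separate basal from luminal libraries in all 6 panels. With scaling over all peaks, only the E2f8 promoter among those below them has a lineage call, in TEBs.

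The further promoter peaks gave 0 higher and 2 lower of 12 in basal TEB against basal duct (0.673% and 31.9% of all promoter peaks), namely the upstream Ccnd3 promoter (chr17:47504833-47505358, −1.22 ± 0.25, adjusted p = 0.0058) and a peak of Cdkn1b 0.41 kb from the start (−1.26 ± 0.35, adjusted p = 0.018). In ducts 6 of the 12 were higher in basal cells, beside 43.8% of all promoter peaks, namely 2 of Mycn, 2 of E2f3 and 1 each of Cdk6 and Cdkn1b. Those of E2f3 went opposite to its lead promoter peak, which was lower. In TEBs 2 of the 12 were higher in basal cells, both of Mycn, and 1 lower, the upstream Ccnd3 promoter (−1.15), beside 10.4% and 14.7% of all promoter peaks. The interaction passed at 0 higher and 1 lower, the same Ccnd3 peak (−1.23), beside 1.08% and 13.9%.

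A wider set of 91 cell cycle genes outside the 44 was listed by function. In basal TEB against basal duct 0 of their promoters were higher and 25 lower, beside 0.673% and 31.9% of all promoter peaks. Among the 25 were 10 of 28 replication genes, led by Orc5 (−1.31 ± 0.39, adjusted p = 8.3e-04), of the origin recognition complex, and by Dbf4 (−1.17 ± 0.31, adjusted p = 0.0011), which activates the Cdc7 kinase. Of 14 further E2F, RB and MuvB genes 5 were lower, led by E2f5 (−1.26 ± 0.19, adjusted p = 2.7e-04), and of 23 mitotic genes 3, led by Cenpe (−1.26 ± 0.27, adjusted p = 0.0013), a kinetochore motor. Of 18 cyclins and their regulators 4 were lower, and of 8 checkpoint genes 3, led by Atr (−1.19 ± 0.32, adjusted p = 0.0014). In luminal cells 0 passed in either direction. The median difference of the 91 in basal TEB was −0.55, beside −0.64 for all promoters.

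Between the lineages 27 of the 91 were higher and 8 lower in basal duct, and 6 higher and 13 lower in basal TEB. Of all promoter peaks 43.8% and 12.0% were so in ducts and 10.4% and 14.7% in TEBs. Ccnd2, the third D-type cyclin, was higher in basal cells by 1.53 ± 0.52 in ducts (adjusted p = 1.4e-05) and 3.15 ± 0.42 in TEBs (adjusted p = 7.1e-11). In ducts Espl1, the separase (1.16 ± 0.18, adjusted p = 5.9e-07), and Cdc25b, a phosphatase that activates Cdk1 (1.06 ± 0.35, adjusted p = 1.1e-07), were higher, and Mad2l1, of the spindle checkpoint, was lower (−0.59 ± 0.08, adjusted p = 1.2e-04). The interaction passed at 0 higher and 6 lower, beside 1.08% and 13.9% of all promoter peaks.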

How the data were processed

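Per the study's methods, the authors used Bowtie2 for alignment of the ATAC-seq reads (version 2.3.4.3 in the submitters' processing notes, while the methods give another version), with mm10 as the genome build, called peaks with MACS2 on pooled replicates, merged them, and counted reads per peak in SeqMonk for each library. The deposited values are raw counts over 153396 merged peaks in 11 libraries, with 1821942 to 9986384 counts per library. Since peaks were called on pooled replicates, a peak can rest on few libraries. A further basal duct sample had been discarded by the authors for its low cell number and was not analysed here.

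Promoter peaks (within 500 bp of a start of a protein-coding gene) and other peaks (gene body, or within 10 kb) were assigned with GENCODE vM21. The comparisons used the edgeR (4.0.16) exact test with TMM factors within each pair of groups and every peak with a count, Benjamini-Hochberg adjusted over all peaks, as in the study. The interaction used the quasi-likelihood test after filterByExpr. Levels are CPM with TMM over the 11 libraries, and RPKM by peak width for comparisons between genes. Standard errors come from log2 CPM (prior count 2) of the libraries. Alternatives were RLE factors, TMM over promoters, GC-bin offsets, filterByExpr, the quasi-likelihood test, DESeq2 (1.42.0), a replicate block, leaving out each library and a promoter distance of 1 kb. The test was checked on simulated counts. Intervals of count ratios are exact at 95% and cover counting error only.

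The 44 members, the pathway lists and the markers were chosen with earlier results of these data known. Values in every library are given for members past an adjusted p of 0.05 in any comparison and for members fixed by role, and other peaks are named by the smallest p values in each direction.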

Additional observations from a re-analysis of the deposited data

Results flagged for a closer look

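The structure effect (TEB minus duct) differed between basal and luminal cells at 5 promoters, with interaction values on the log2 scale of −1.27 (Cdk6), −0.95 (Foxm1), −0.86 (Cdt1), −0.79 (E2f7) and −0.75 (E2f8).

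Among other peaks the difference between the lineages was positive at 7. These were Aurka 4.61 kb downstream (3.68, with 1 count in basal duct), Rb1 49.85 kb downstream (3.60, with 1 count in basal duct), E2f3 29.78 kb downstream (3.05), Aurka 6.91 kb downstream (2.81), Ccnd3 4.12 kb downstream (2.68, with 3 counts in basal duct), Rbl1 55.39 kb downstream (2.52) and Ccnd1 9.91 kb downstream (2.01). The fitted values at the peaks with so few counts depend on the prior count. It was negative at 6, namely Cdk4 3.78 kb upstream (−1.92), E2f2 4.31 kb upstream (−1.75), E2f2 7.62 kb downstream (−1.28), Cdk6 0.75 kb upstream (−1.21), Cdkn1a 0.5 kb downstream (−1.04) and Cdc20 8.85 kb downstream (−0.98).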

How the results depend on the processing

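The lineage calls at Mycn, Top2a, Aurkb, Rbl1 and Cdkn2b in ducts were kept in all 12 alternatives, and those at Cdkn2b and E2f8 in TEBs in all 13. In the structure comparison of basal cells the basal TEB libraries have 1821942 to 2489582 counts and basal duct has 2 libraries, which limits its precision. The cause of the changes below was not tested.

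In basal TEB against basal duct the member promoters called were 10, and 2 with promoter-based TMM, 1 with GC-bin offsets, 4 with filterByExpr, 6 with DESeq2 and 0 to 22 when a library was left out. The other peaks called were 16, and 9 with promoter-based TMM, 9 with GC-bin offsets, 8 with filterByExpr, 6 with DESeq2 and 0 to 26 when a library was left out. In luminal TEB against luminal duct the promoters called were 0, and 2 with filterByExpr, 1 with DESeq2 and 0 to 2 when a library was left out, and the other peaks called were 0, and 1 with promoter-based TMM or filterByExpr and 0 with any library left out.

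In basal against luminal duct the promoters called were 13, and 20 with promoter-based TMM, 20 with GC-bin offsets and 9 to 17 when a library was left out, and the other peaks 69 to 89. In basal against luminal TEB the promoters called were 9, and 5 with DESeq2 and 3 to 12 when a library was left out, and the other peaks 53, with 34 under filterByExpr and 39 to 50. The interaction passed at 5 promoters, and at 2 with RLE factors, 3 with promoter-based TMM, 2 with GC-bin offsets, 1 with DESeq2 and 1 to 13 when a library was left out. At other peaks it passed at 13, and at 7 with GC-bin offsets and 4 to 17.

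With promoter-based TMM, which shifts all promoters together, members below 0 went from 41 to 16 of 44 in basal TEB against basal duct and from 14 to 28 in basal against luminal duct. Among differences called under either setting, the following changed sign. With promoter-based TMM, E2f3 was 0.61 in basal TEB against basal duct, and in basal against luminal duct Cdkn2c was −0.27 and Mcm6 −0.31. With GC-bin offsets the differences in basal against luminal duct were −0.38 (Cdkn1b), −0.42 (Cdkn2c), −0.30 (E2f7) and −0.059 (Foxm1).

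Deviations from the group means correlated at −0.033 to 0.087 between libraries with the same replicate number, so the numbers were not taken to pair the libraries. Of the 6 libraries of luminal duct and luminal TEB, 6 correlated best with their own number, and of the 6 in either comparison of basal TEB with a luminal group, 2. With the replicate block the promoters called were 21 in basal TEB against basal duct and 2 in luminal cells, where 1 other peak passed. The counts of all other comparisons with the block stayed within 1.5 times.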
